A study of Mus musculus with 6 samples.

Results

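The fibroadipogenic progenitor markers are 10 mouse genes fixed by name: Pdgfra, Ly6a, Cd34, Gsn, Pi16, Dpp4, Smoc2, Tcf21, Osr1 and Cxcl12. All 10 were found by gene symbol among the 53947 genes of the tables, and 9 of them were among the 13576 genes that passed the filter on low counts. They were followed in total RNA, depleted of ribosomal RNA, from quadriceps muscle of mice aged 12 weeks. Mice of the HSA-LR group (3 libraries), a model of myotonic dystrophy, carry the gene of human skeletal actin as a transgene whose CTG tract is expanded to around 220 repeats, and the WT group (3 libraries) is wild type. The series was made to see how MBNL proteins, the splicing factors that the expanded repeat RNA sequesters, affect muscle RNA. Skeletal actin is a gene of muscle fibres, whereas these markers label connective tissue cells, and the transgene itself was not measured here. The strain and sex of these mice, and whether each library is a separate mouse, were not stated, so p-values measure only the spread between these libraries.

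Fibroadipogenic progenitors are the resident mesenchymal cells of skeletal muscle. They lie between the fibres, produce extracellular matrix, support muscle stem cells after injury, and can become fibroblasts or adipocytes in diseased muscle. Few of their markers belong to them alone: Cd34 and Ly6a are also carried by endothelial cells of mouse muscle, Cxcl12 is also made by vessel cells, and Gsn is made by many cell types. In a library of whole muscle, a change in the number of cells of a type cannot be told apart from a change in the RNA per cell.

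The libraries held between 11468959 and 15023710 expected counts. A count of 3 is worth between 0.2 and 0.262 CPM (counts scaled to the size of the library). HSA-LR replicate 1 stood apart from the others. The abundant noncoding RNAs 7SL and 7SK took 43.9% of its counts, against 18.8% and 24.0% in HSA-LR replicates 2 and 3 and 14.1% to 15.5% in the WT libraries. On the TPM scale (abundance per transcript length, scaled to a fixed sum) the same RNAs took 83.9%, 68.0% and 72.2% of the HSA-LR libraries and 63.7% to 66.1% of the WT libraries, so the deposited TPM of every other gene is compressed most in HSA-LR replicate 1. CPM values below were computed on library sizes scaled by TMM, a method that balances the bulk of genes between libraries. Fold changes of the markers are therefore given with and without HSA-LR replicate 1.

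Most of the markers had higher values in HSA-LR muscle, with HSA-LR replicate 1 far above the rest, and Gsn alone passed the test. Of the 9 markers tested, 8 had a positive log2 fold change and Cxcl12 a negative one. Their median log2 fold change was 0.92, against 0.04 over all 13576 genes tested. Gsn was called higher by edgeR's quasi-likelihood test at an adjusted p below 0.05 and no marker was called lower, where 11.8% of all genes tested were called and 4.28% were called higher. At an unadjusted p below 0.05 there were 7 markers, and 31.9% of all genes. DESeq2 called 6 of the markers higher (Pdgfra, Ly6a, Cd34, Gsn, Dpp4 and Smoc2), and 7.48% of all genes it tested. In 6 of the 9 (Pdgfra, Ly6a, Cd34, Gsn, Dpp4 and Smoc2) every HSA-LR library lay above every WT library in CPM, as did 17.8% of all genes. HSA-LR replicate 1 was the highest of the 6 libraries for 9 of 9 markers, and for 29.3% of all genes. HSA-LR replicate 2 was the lowest HSA-LR library for 8 of 9, Smoc2 being the exception.

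**Figure D1:**
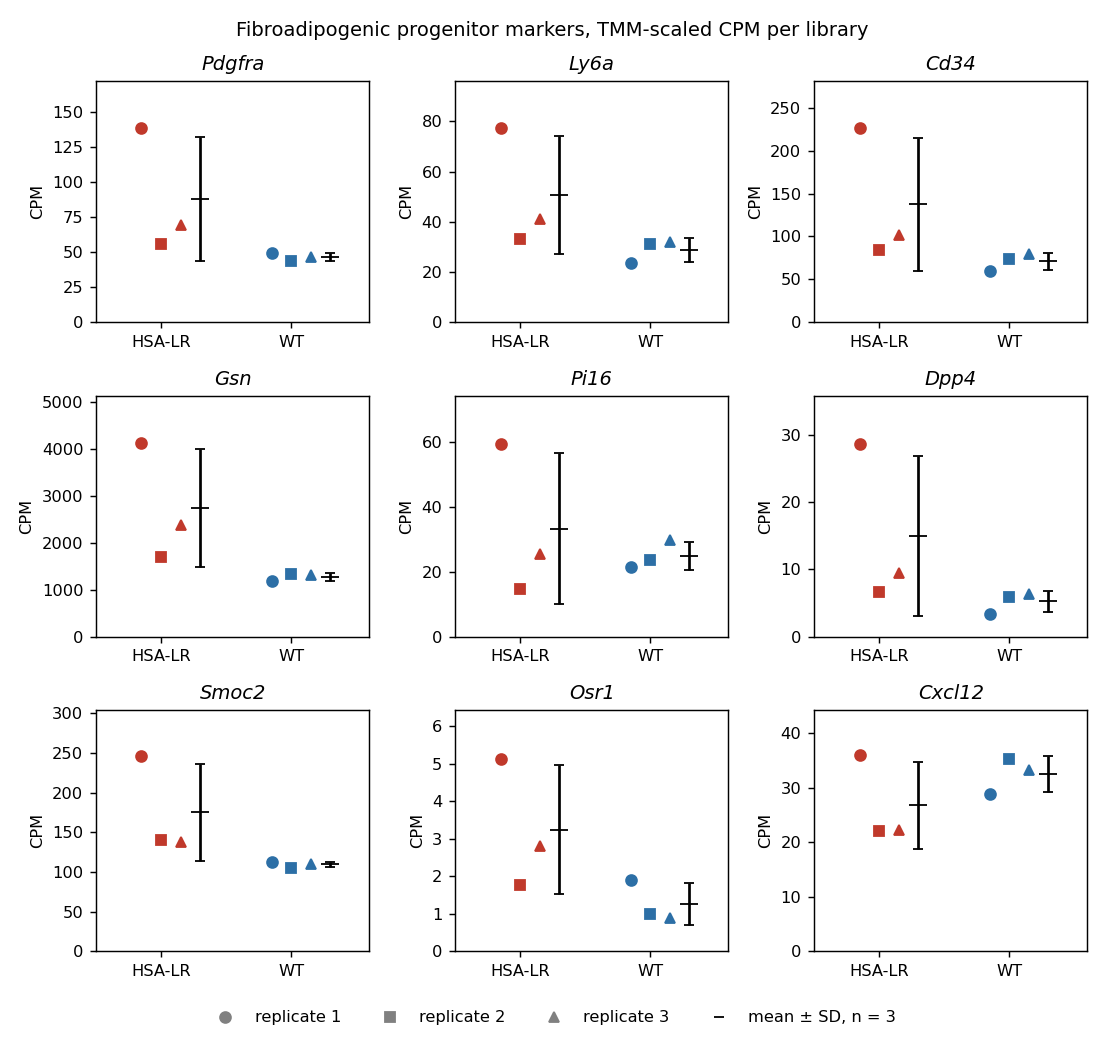
TMM-scaled CPM of the 9 markers with counts, HSA-LR left and WT right, 1 symbol per replicate and a bar for the mean ± SD (n = 3); each vertical axis starts at 0 and has its own range. HSA-LR replicate 1 (circle) is the highest point in every panel, and in the Pi16, Osr1 and Cxcl12 panels the groups overlap.

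The level of the markers differed widely between genes, which can be compared only per length and is therefore given in TPM. Gsn was by far the most abundant, at 426 ± 55.1 TPM in HSA-LR muscle and 312 ± 30.8 TPM in WT muscle (SD, n = 3 each). Ly6a, Smoc2 and Cd34 followed in both groups with overlapping ranges, between 19.3 and 28.1 TPM in HSA-LR muscle and between 15.8 and 28.5 TPM in WT muscle. Pdgfra, Pi16 and Cxcl12 came next, between 3.38 and 7.58 TPM in HSA-LR muscle and between 4.94 and 7.75 TPM in WT muscle. Dpp4 and Osr1 were the lowest of the markers detected, with means of 1.86 and 0.66 TPM in HSA-LR muscle and 1.07 and 0.49 TPM in WT muscle. Neighbours within the second and the third of these sets were not separated beyond their spread in either group, and Dpp4 and Osr1 overlapped in WT muscle only.

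Groups were separated in deposited TPM for 3 markers. Pdgfra and Gsn lay higher in all HSA-LR libraries, as 2.68% of all genes did. Cxcl12 lay lower in all of them, as 30.9% of all genes did. When TPM was rescaled without 7SL and 7SK, a choice made after the data were seen, 4 markers were separated, all higher in HSA-LR muscle: Pdgfra, Cd34, Gsn and Smoc2. The share of all genes separated on that scale was not computed, so this count has no baseline. Cxcl12 then overlapped, at 23.5, 12.0 and 12.2 rescaled TPM in HSA-LR muscle against 13.8, 16.2 and 15.6 in WT muscle.

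Of the cell surface proteins, Pdgfra encodes the platelet-derived growth factor receptor alpha, the marker most used to sort these cells. Its gene lies at chr5:75311994-75358876 (GRCm39). Pdgfra stood at 139, 56.0 and 69.3 CPM in HSA-LR replicates 1, 2 and 3, against 49.5, 43.3 and 46.5 CPM in WT replicates 1, 2 and 3. All HSA-LR libraries were above all WT libraries, but the lowest HSA-LR value was close to the highest WT value. The log2 fold change was 0.92 ± 0.32 (SE), with an edgeR adjusted p of 0.0941, and was not called. Its TPM also separated the groups, with less spread, at 6.93, 6.78 and 7.58 in HSA-LR muscle against 5.46, 5.23 and 5.83 in WT muscle.

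Dpp4, a membrane peptidase that together with Pi16 marks a progenitor state found in the connective tissue of many mouse organs, had the largest fold change of the 9 and, after Osr1, the fewest counts. It stood at 28.6, 6.69 and 9.52 CPM in HSA-LR muscle, against 3.39, 5.95 and 6.38 CPM in WT muscle. HSA-LR replicate 1 was far above any other library, while HSA-LR replicate 2 was only just above the highest WT library. The log2 fold change of Dpp4 was 1.50 ± 0.58 (SE), with an edgeR adjusted p of 0.130. Its estimated transcript length moved between 2089 and 4607 bases from library to library, so that its TPM (2.25, 0.90 and 2.43 in HSA-LR muscle, 0.46, 1.28 and 1.46 in WT muscle) is unsteady.

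Ly6a, which encodes the surface antigen Sca-1, and Cd34, which encodes a sialomucin, kept nearly the same pattern as each other (Pearson r 0.996 over the 6 libraries, as a description). Ly6a stood at 77.4, 33.3 and 41.0 CPM in HSA-LR muscle, against 23.4, 30.9 and 31.9 CPM in WT muscle. Cd34 stood at 226, 84.3 and 101 CPM in HSA-LR muscle, against 59.5, 73.5 and 79.5 CPM in WT muscle. For both genes HSA-LR replicate 2 was above the highest WT library by less than the range among the WT libraries. The log2 fold changes were 0.81 ± 0.31 (SE) for Ly6a and 0.95 ± 0.36 (SE) for Cd34, with edgeR adjusted p of 0.118 and 0.124. Counts of Cd34 were fractional in all 6 libraries, since some of its reads were shared out with other sequences, and its values carry that uncertainty.

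Of the secreted and matrix proteins, Gsn encodes gelsolin, a protein that severs actin filaments and also exists in a secreted form. Its gene lies at chr2:35145967-35197917 (GRCm39). Gsn had 43553, 21068 and 35644 expected counts in HSA-LR muscle, against 16700, 20239 and 17686 in WT muscle, and so is the best counted of the markers. In CPM it stood at 4137, 1697 and 2390 in HSA-LR muscle, against 1179, 1338 and 1313 in WT muscle. The groups were separated in counts, in CPM and in TPM. The log2 fold change was 1.10 ± 0.30 (SE), 2.15-fold, with an edgeR adjusted p of 0.0472, just inside the threshold. Without HSA-LR replicate 1 it was 0.69 ± 0.16 (SE), with an adjusted p of 0.0168, and over the 6 fits that each leave out 1 library it ran from 0.69 to 1.35. Gsn was not called without HSA-LR replicate 3 or without any one of the WT libraries, where its edgeR adjusted p lay between 0.108 and 0.178. In those fits 42 to 50 genes were called higher, of 13846 to 14001 tested, against 581 of 13576 with all 6 libraries.

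Smoc2 encodes a calcium-binding matrix protein. It stood at 246, 141 and 138 CPM in HSA-LR muscle, against 112, 105 and 110 CPM in WT muscle. The WT libraries were close together and every HSA-LR library was above them, by most in replicate 1. The log2 fold change was 0.68 ± 0.22 (SE), with an edgeR adjusted p of 0.0749. In deposited TPM the difference was not seen: 23.8, 28.0 and 25.4 TPM in HSA-LR muscle and 25.4, 24.7 and 24.1 TPM in WT muscle.

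Pi16 is a secreted or membrane-anchored protein that marks the same progenitor state as Dpp4. Pi16 had the same order of libraries in both groups as Dpp4, Ly6a and Cd34, but a smaller difference between the groups. It stood at 59.5, 14.8 and 25.5 CPM in HSA-LR muscle, against 21.5, 23.6 and 29.8 CPM in WT muscle. HSA-LR replicate 2 was the lowest and HSA-LR replicate 1 the highest of the 6 libraries, so the HSA-LR range enclosed the WT range. The log2 fold change was 0.41 ± 0.49 (SE), with an edgeR adjusted p of 0.598. Without HSA-LR replicate 1 the sign turned, to -0.29 ± 0.24 (SE), and the adjusted p was 0.46.

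The transcription factors Osr1 and Tcf21 are used to trace connective tissue cells of muscle from the embryo onward. Osr1 had 54, 22 and 42 expected counts in HSA-LR muscle, against 27, 15 and 12 in WT muscle, which is 5.13, 1.77 and 2.82 CPM against 1.91, 0.99 and 0.89 CPM. HSA-LR replicate 2 was below WT replicate 1, and the log2 fold change of 1.34 ± 0.48 (SE) was not called (edgeR adjusted p 0.0946). The noncoding gene Gm48764 overlaps Osr1 on the opposite strand, with a mean of 226 counts in HSA-LR muscle and 370 in WT muscle. The kit marks strand, but the strand setting of the counting was not stated, so the part of either gene in these counts was not tested. Tcf21 had 0 counts in all 6 libraries, which allows a level of up to 0.2 to 0.262 CPM per library (3 counts). That limit is on library sizes not scaled by TMM, unlike the CPM of Osr1.

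Cxcl12 encodes a chemokine that draws and retains cells bearing the receptor CXCR4, and it was the one marker with a negative fold change. It stood at 36.0, 22.2 and 22.2 CPM in HSA-LR muscle, against 28.8, 35.3 and 33.3 CPM in WT muscle. HSA-LR replicates 2 and 3 were below all WT libraries, and HSA-LR replicate 1 was above them all. The log2 fold change was -0.28 ± 0.20 (SE), with an edgeR adjusted p of 0.36. Without HSA-LR replicate 1 it was -0.54 ± 0.13 (SE), with an adjusted p of 0.0235, and Cxcl12 was called lower. Deposited TPM was lower in every HSA-LR library, at 3.78, 3.83 and 3.38 against 4.94, 5.86 and 5.30 in WT muscle.

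The length of Cxcl12 also moved between the groups. The length that the authors' software gives for a gene is the mean of its transcripts' lengths, weighted by their estimated abundance. It was 2624, 3242 and 3395 bases in HSA-LR muscle, against 3665, 3978 and 3767 bases in WT muscle (means 3087 ± 408 and 3803 ± 160 bases, SD, n = 3 each). All HSA-LR values were below all WT values (exact permutation test, two-sided, p = 0.1, the smallest that 3 against 3 libraries allow). Among the 10912 genes whose length varied by more than 1%, 8.29% showed the same separation downward and 4.47% upward. With the length of each library as an offset in edgeR, the log2 fold change of Cxcl12 was 0.09, with an adjusted p of 0.864. That fit alone turned the sign: with each library's trend on length removed the value was -0.18. Deposited TPM, which is also per length, was lower, but 7SL and 7SK compress it. CPM per kilobase of length overlapped, at 14.6, 7.20 and 6.86 in HSA-LR muscle against 8.23, 9.26 and 9.25 in WT muscle. On that scale HSA-LR replicates 2 and 3 were below all WT libraries and HSA-LR replicate 1 was above them all. These values do not settle whether Cxcl12 was lower per length. None of the other 9 markers had separated lengths.

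GENCODE M39 holds 4 transcripts of Cxcl12, of which 3 are coding, and the release that the authors used was not stated. The coding transcripts share their first 267 coding bases and then end differently, giving the alpha, beta and gamma forms of the chemokine, which differ at the C terminus. They are shown because a change in their mixture moves the gene's length: Cxcl12-202 is 1878 bases long, Cxcl12-203 is 3171 bases and Cxcl12-201 is 5669 bases. The noncoding transcript Cxcl12-204, a retained intron of 2894 bases, also enters that length. The length of the gene therefore does not tell which of the transcripts changed. The stretches below are spliced coding sequence on the plus strand of GRCm39, with 24 of the shared bases in lower case and the end that differs, stop codon included, in capitals. Cxcl12-202 lies at chr6:117150517-117150543, Cxcl12-203 spans chr6:117150517-117155559 and Cxcl12-201 spans chr6:117150517-117153140.
Cxcl12-202: tacctggagaaagctttaaacaagTAA
Cxcl12-203: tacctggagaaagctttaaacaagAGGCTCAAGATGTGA
Cxcl12-201: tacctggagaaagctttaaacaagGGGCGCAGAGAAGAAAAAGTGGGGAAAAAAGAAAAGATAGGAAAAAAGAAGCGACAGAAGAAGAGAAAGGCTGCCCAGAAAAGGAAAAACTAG
The tables give 1 value per gene, so levels of the 3 forms were not analysed here.

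**Figure D2:**
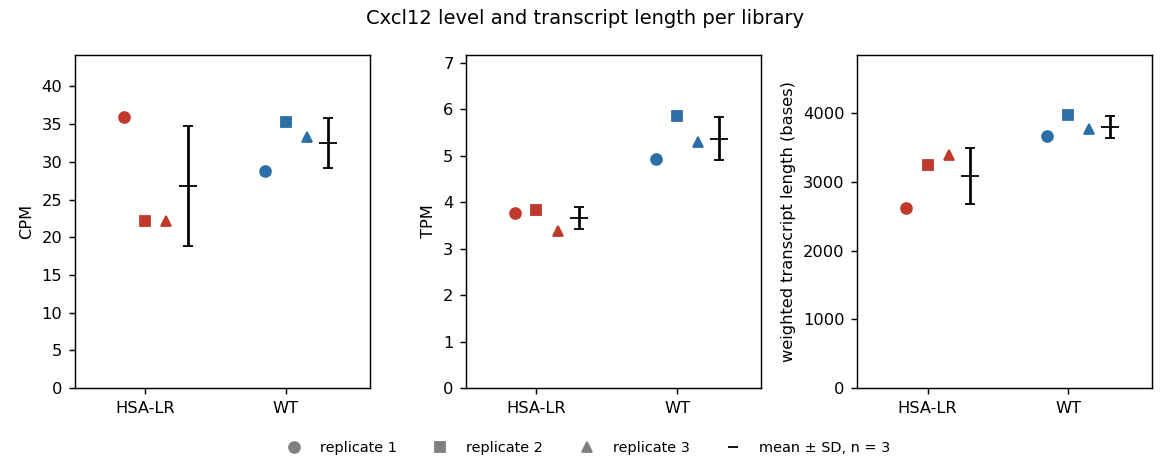
Cxcl12 in each library as TMM-scaled CPM, deposited TPM and abundance-weighted transcript length in bases, HSA-LR left and WT right, with the mean ± SD (n = 3) and axes that start at 0. The groups overlap in CPM, because of HSA-LR replicate 1, and are separated in TPM (3.38 to 3.83 against 4.94 to 5.86) and in length (2624 to 3395 against 3665 to 3978 bases).

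The start regions of the markers were compared because the fold changes of Pdgfra and Cxcl12 had opposite signs. With all 6 libraries neither gene was called (edgeR adjusted p 0.0941 and 0.36), so that contrast was not established. RefSeq promoters, here the 250 bases before each start placed on GRCm39 by exact match, were found for 7 of the 10 markers, in 9 start regions. The patterns searched were as follows, each on both strands: GGGCGG, the core of GC boxes; CANNTG, the E-box that basic helix-loop-helix factors such as TCF21 recognise; and TATAAA. The patterns do not overlap one another in the stretches shown, apart from neighbouring copies of GGGCGG. Matches are in capitals below (CCGCCC is the GC box core read from the other strand), plus strand, 5′ to 3′, for Cxcl12 at chr6:117145246-117145495 and for Pdgfra at chr5:75312662-75312911.
Cxcl12: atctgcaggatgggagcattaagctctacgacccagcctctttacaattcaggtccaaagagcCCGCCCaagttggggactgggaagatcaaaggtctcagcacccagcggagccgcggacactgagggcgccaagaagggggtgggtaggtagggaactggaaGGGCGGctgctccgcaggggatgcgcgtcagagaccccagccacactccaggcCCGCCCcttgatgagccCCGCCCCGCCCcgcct
Pdgfra: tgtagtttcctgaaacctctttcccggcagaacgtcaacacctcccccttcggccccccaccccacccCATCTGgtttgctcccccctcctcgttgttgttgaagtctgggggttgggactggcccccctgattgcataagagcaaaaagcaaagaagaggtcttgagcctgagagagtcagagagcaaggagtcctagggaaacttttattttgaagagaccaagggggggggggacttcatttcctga
Cxcl12 held 5 copies of GGGCGG and 64.4% G and C, and neither of the other patterns. Pdgfra held 1 CANNTG and 54.4% G and C, and no GC box core. Among the other start regions the core was present in all 3 of Gsn (2, 1 and 1 copies) and in none of Cd34, Dpp4, Pi16 and Tcf21, so its presence did not divide the markers by direction. The GC box core was present in 32.7%, CANNTG in 66.2% and TATAAA in 12.4% of 32851 RefSeq promoters of the same length, whose median G and C content was 52.4%. A match is a description of the letters, not a site of binding.

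How far the markers depend on HSA-LR replicate 1 was measured by refitting all genes without it. Every marker's fold change then moved down, 7 of the 9 stayed positive, and Gsn was called higher and Cxcl12 lower, where 5.94% of all genes were called higher and 8.46% lower. Pdgfra stood at 0.44 ± 0.13 (SE) on the log2 scale with an adjusted p of 0.0503, and Smoc2 had 0.36 ± 0.11 (SE) with 0.0536, both just outside the threshold of edgeR's test. Cd34 (0.40), Ly6a (0.38), Dpp4 (0.64) and Osr1 (0.87) had adjusted p of 0.0964, 0.142, 0.156 and 0.219. Without HSA-LR replicate 2, in contrast, 7 markers were called higher: Pdgfra, Ly6a, Cd34, Gsn, Dpp4, Smoc2 and Osr1, where 10.6% of all genes were called higher. The share of 7SL and 7SK moved with the markers' level, and once edgeR adjusted for that share none was called higher, while Cxcl12 (-0.75, adjusted p 0.0273) and Pi16 (-0.87, adjusted p 0.0309) were called lower, where 2.67% of all genes were called higher and 4.22% lower. In that fit Gsn stood at 0.32 ± 0.14 (SE), with an adjusted p of 0.194, and Pdgfra at 0.07. The share was itself higher in all HSA-LR libraries, so the covariate also takes up part of the difference between the groups.

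**Figure D3:**
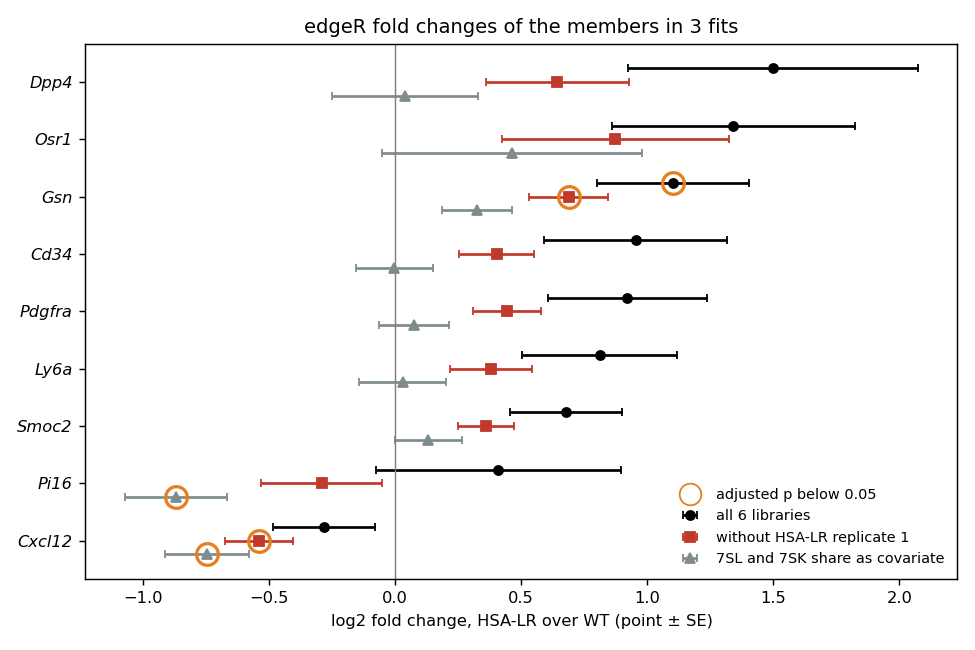
Log2 fold change (HSA-LR over WT, point ± SE) of the 9 markers from edgeR with all 6 libraries (black circles), without HSA-LR replicate 1 (red squares) and adjusted for the share of 7SL and 7SK (grey triangles); orange rings mark an adjusted p below 0.05. Gsn is ringed on the positive side in the first 2 fits and Cxcl12 on the negative side in the last 2. Pi16 is ringed on the negative side in the fit adjusted for the share of 7SL and 7SK.

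Since libraries may hold more or less connective tissue, each marker was also divided by Pdgfra within its library, on counts, which gave 8 ratios. The ratios of Ly6a, Cd34, Gsn, Dpp4, Smoc2 and Osr1 to Pdgfra overlapped between the groups. For Gsn the ratio was 29.9, 30.3 and 34.5 in HSA-LR muscle and 23.8, 30.9 and 28.3 in WT muscle. For Cxcl12 it was 0.260, 0.396 and 0.320 in HSA-LR muscle against 0.582, 0.815 and 0.717 in WT muscle, a log2 difference of -1.12. For Pi16 it was 0.429, 0.265 and 0.368 in HSA-LR muscle against 0.434, 0.545 and 0.641 in WT muscle, a log2 difference of -0.62. Both separations had p = 0.1 by the two-sided exact permutation test, the smallest possible, without adjustment over the 8 ratios. Of all genes 47.8% were separated in the same direction, since Pdgfra itself was higher in HSA-LR muscle, and the median log2 difference of all genes was -0.78. A difference as low as that of Cxcl12, or lower, was found in 25.2% of all genes, and as low as that of Pi16 in 61.5%. In TPM the Cxcl12 ratio stayed separated, and the Pi16 ratio overlapped.

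Other genes of the same cells also had positive fold changes, but separated the groups less. In a list of 20 further stromal genes of fibroadipogenic progenitors, all 20 were tested, all 20 had a positive log2 fold change (median 0.85) and 2 were called higher. Groups were separated in CPM for 7 of the 20, and 17.8% of all genes were separated upward. The list's summed CPM overlapped, at 3.02, 1.08 and 1.32 times the WT mean in HSA-LR muscle against 0.89 to 1.11 times in WT muscle. Its summed TPM overlapped too. For this and the following lists, 52.9% of all genes tested had a positive value and 4.28% were called higher. The share called higher was 5.94% without HSA-LR replicate 1 and 2.67% after adjustment for the share of 7SL and 7SK. Thy1, a surface glycoprotein of fibroblasts, averaged 12.6 ± 6.04 CPM in HSA-LR muscle and 4.30 ± 1.31 CPM in WT muscle (SD, n = 3 each; log2 fold change 1.54, edgeR adjusted p 0.0412). Fap, a fibroblast peptidase, averaged 23.1 ± 7.46 CPM in HSA-LR muscle and 10.6 ± 1.92 CPM in WT muscle (log2 fold change 1.12, edgeR adjusted p 0.0222). Without HSA-LR replicate 1 the median was 0.40, 16 of 20 were positive and 6 were called higher: Thy1, Fap, Cd248, Lum, Pcolce2 and Serpinf1. After adjustment for the share of 7SL and 7SK the median was -0.01, 10 of 20 were positive and 0 were called.

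In a list of 10 genes of matrix production and fibroblast activation, 8 were tested and all 8 were positive (median 1.15). Col3a1, the type III collagen chain, was the 1 gene called, at 2139, 783 and 1022 CPM in HSA-LR muscle against 566, 514 and 463 CPM in WT muscle (log2 fold change 1.35 ± 0.35, SE; edgeR adjusted p 0.0456). HSA-LR replicate 1 was again the highest library. Without it the median was 0.57 and 2 genes of the list were called higher, Col3a1 and Fn1, and after adjustment for the share of 7SL and 7SK the median was 0.21 with 0 called.

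Of 12 connective tissue transcription factors 10 were tested and none was called in either direction, although 8 of the 10 had a positive log2 fold change (median 0.47). The highest were Meox1 (1.40), Ebf2 (1.16) and Meox2 (1.12), homeobox and early B-cell factors named here after their values were seen, with edgeR adjusted p of 0.191, 0.0743 and 0.115. The 2 most abundant were the 2 with a negative value. Prrx1, a mesenchymal homeobox factor, averaged 38.4 ± 16.2 CPM in HSA-LR muscle and 41.0 ± 4.34 CPM in WT muscle (SD, n = 3 each). Tbx15, a T-box factor that muscle fibres also express, stood lower in all HSA-LR libraries, at 125 ± 29.9 CPM against 200 ± 32.9 CPM in WT muscle, with an edgeR adjusted p of 0.0573. Without HSA-LR replicate 1 the median was 0.25 and Prrx1 was called lower. After adjustment for the share of 7SL and 7SK the median was -0.17 with 3 of 10 positive, and Prrx1 was again called lower.

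The ligands and partners of the marker receptors and chemokine were not called. None of the 6 PDGF ligands and receptors other than Pdgfra passed the test (median log2 fold change 0.40, and 0.11 without HSA-LR replicate 1). Pdgfrb, the receptor of mural cells and fibroblasts, stood at 0.59 ± 0.30 (SE) on the log2 scale (edgeR adjusted p 0.217), and Pdgfa, a ligand of the alpha receptor, at -0.05 ± 0.15 (SE; edgeR adjusted p 0.85). Of the CXCL12 receptors, Cxcr4 stood at 4.94, 2.01 and 2.41 CPM in HSA-LR muscle against 2.05, 0.93 and 1.34 CPM in WT muscle (log2 fold change 1.11, edgeR adjusted p 0.132). Ackr3, a scavenging receptor, stood at 32.5, 14.6 and 21.1 CPM in HSA-LR muscle against 12.3, 14.2 and 17.4 CPM in WT muscle (log2 fold change 0.63, edgeR adjusted p 0.165). For both receptors the groups overlapped.

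Muscle fibre markers such as Ckm were abundant in all 6 libraries, as the label of the tissue implies, and markers of other cells differed too. Their part in the values of the progenitor markers was not tested. The summed CPM of the progenitor markers, divided by its WT mean, was 3.10, 1.29 and 1.75 in HSA-LR muscle, against 0.93, 1.04 and 1.03 in WT muscle. Gsn made up 82.5% to 85.4% of that sum in HSA-LR muscle and 79.5% to 80.8% in WT muscle, and without Gsn the sum was 2.56, 1.13 and 1.28 times the WT mean in HSA-LR muscle and 0.94 to 1.06 times in WT muscle. All 10 macrophage markers were positive (median 1.3) and 6 were called higher, with summed levels of 4.16, 1.41 and 1.95 times the WT mean in HSA-LR muscle and 0.95 to 1.07 times in WT muscle. Cd68, a lysosomal protein of macrophages, stood at 14.3, 6.44 and 8.04 CPM in HSA-LR muscle, against 2.90, 3.37 and 2.67 CPM in WT muscle (log2 fold change 1.68, edgeR adjusted p 0.0148). Itgam (2.02), Cd163 (1.34) and Adgre1 (1.31), also macrophage genes, were called with adjusted p of 0.0306, 0.0249 and 0.0318. The macrophage median was 0.82 without HSA-LR replicate 1, with 8 genes called, and after adjustment for the share of 7SL and 7SK it was 0.47 with Cd68 alone called; all 10 stayed positive in both fits. The HSA-LR libraries ranked 1, 3, 2 in the macrophage sums, as in the sums of the progenitor markers. The endothelial, mural, Schwann cell, PDGF and CXCL12 receptor sums ranked them 1, 3, 2 too, so that order does not link particular lists. The transcription factor, satellite cell and lymphocyte sums ranked them otherwise.

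Tenocyte markers followed that order without a call in 7 genes (median 1.11), with sums of 4.73, 0.86 and 1.69 times the WT mean in HSA-LR muscle and 0.73 to 1.42 times in WT muscle. The tenocyte median was 0.20 without HSA-LR replicate 1, with 5 of 7 positive, and -0.39 after adjustment for the share of 7SL and 7SK, with 2 of 7 positive. Adipocyte markers, the fate of these progenitors in fat infiltration, did not follow it: all 7 were positive and none was called (median 1.49), with sums of 0.83, 0.91 and 6.01 times the WT mean in HSA-LR muscle and 0.28, 0.81 and 1.91 times in WT muscle. The adipocyte level was thus highest in HSA-LR replicate 3, where Fabp4, a fatty acid carrier of adipocytes and capillary endothelium, stood at 814 CPM, against 199 and 144 CPM in HSA-LR replicates 1 and 2 and 68.3, 136 and 267 CPM in the WT libraries. The adipocyte sums thus varied within both groups and ranked the libraries differently from the progenitor markers.

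Endothelial cells, which share Cd34, Ly6a and Cxcl12 with the progenitors, had markers near their WT level. None of 9 endothelial markers was called, 7 were positive (median 0.11), and their sum was 1.37, 0.90 and 0.96 times the WT mean in HSA-LR muscle and 0.95 to 1.08 times in WT muscle. Pecam1, an endothelial adhesion protein, averaged 33.9 ± 4.93 CPM in HSA-LR muscle and 34.0 ± 3.88 CPM in WT muscle (SD, n = 3 each). Vwf, the von Willebrand factor, stood at 37.1, 33.8 and 34.3 CPM in HSA-LR muscle, against 32.3, 31.0 and 24.9 CPM in WT muscle, separated but not called (log2 fold change 0.25, edgeR adjusted p 0.243). The endothelial median was -0.09 without HSA-LR replicate 1, with 3 of 9 positive. Of 8 mural and smooth muscle markers, Cspg4 was called higher (1.12, edgeR adjusted p 0.0281) and Abcc9 lower (-0.77, edgeR adjusted p 0.0303), with a median of -0.04. The mural sum was lower in every HSA-LR library, at 0.80, 0.75 and 0.76 times the WT mean against 0.98 to 1.02 times in WT muscle. Abcc9, the most abundant of the 8, is also expressed in muscle fibres.

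Muscle fibre markers stood lower. All 6 had a negative log2 fold change (median -0.47) and none was called. Their sum was 0.46, 0.84 and 0.64 times the WT mean in HSA-LR muscle and 0.94 to 1.05 times in WT muscle, in the reverse order of the progenitor sums. Myh4, the fast myosin chain of type IIb fibres, stood at 12826, 31232 and 21167 CPM in HSA-LR muscle, against 41854, 35187 and 38993 CPM in WT muscle (log2 fold change -0.83, edgeR adjusted p 0.122). Ckm, muscle creatine kinase, stood at -0.46 on that scale (edgeR adjusted p 0.256). Of the 6 satellite cell markers 3 were tested and Itga7, an integrin that muscle fibres also carry, was called lower (-0.64, edgeR adjusted p 0.0167). The other 2, Pax7 (1.17, adjusted p 0.0881), the defining factor of satellite cells, and Vcam1 (0.75, adjusted p 0.0942), an adhesion protein, were above all WT libraries in every HSA-LR library and were not called, so the list median was 0.75. Among 3 Schwann cell markers tested none was called, and the 5 lymphocyte markers were at or near 0 in all libraries, none above 7.23 counts. From these lists and the stromal and matrix lists 10 called genes were named. None stayed called without HSA-LR replicate 3 or without any one of the WT libraries. Few genes of any kind did: those fits called 166 to 217 genes. Of the 1597 genes called with all 6 libraries, they kept 165 to 214. Each of the 10 kept its direction in all 6 fits that leave out 1 library, and Cspg4 was not called without HSA-LR replicate 1 either.

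**Figure D4:**
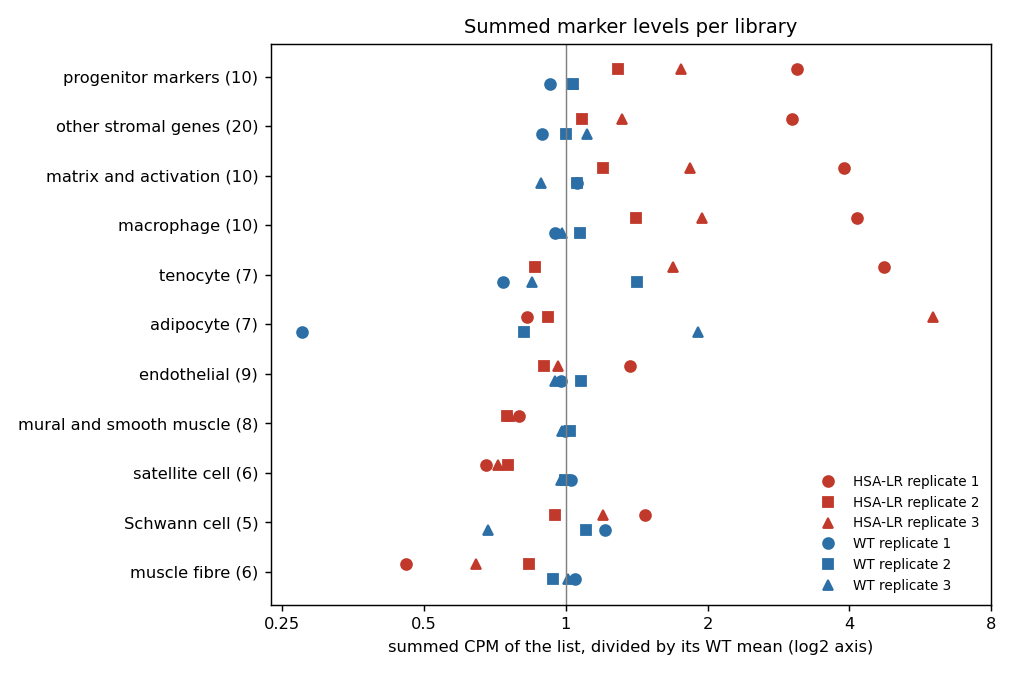
Summed CPM of each marker list, divided by its mean in WT (log2 axis), with HSA-LR libraries in red above WT libraries in blue and 1 symbol per replicate; the number of genes in each list is in brackets. The progenitor (mostly Gsn), stromal, matrix, macrophage, tenocyte, endothelial, mural and Schwann cell sums rank the HSA-LR libraries 1, 3, 2. The muscle fibre sum ranks them in reverse, and the adipocyte sum is highest in HSA-LR replicate 3.

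The mean standardised level of the 9 markers was 1.70, -0.39 and 0.11 in HSA-LR muscle, against -0.63, -0.43 and -0.36 in WT muscle. The genes outside the list whose log2 CPM followed it most closely over the 6 libraries, among those with a mean of at least 5 CPM, were Itpripl2, Arhgef3, Tent5a, Fndc3b and Mob1a, with Pearson r between 0.9975 and 0.9991. Such values describe 6 libraries, of which HSA-LR replicate 1 sets most of the range. None of these 5 genes was called, and Itpripl2 stood at 42.9, 18.0 and 21.3 CPM in HSA-LR muscle, against 16.0, 17.3 and 17.8 CPM in WT muscle. Among the markers themselves r ran as high as 0.999, for Ly6a and Dpp4, and Cxcl12 stood apart with r between -0.143 and 0.654 to the others.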

How the data were processed

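Quadriceps RNA was isolated with TRIzol and made into stranded total RNA libraries after removal of ribosomal RNA, 3 of HSA-LR and 3 of WT mice, grouped by genotype in the labels. The authors deposited expected counts (RSEM estimates of reads per gene, with reads of several genes divided between them), TPM (the counts per effective length, scaled to a fixed sum by the authors), FPKM and other columns with lengths per gene. FPKM was not used. The processing notes of the submitters name RSEM 1.3.1, Bowtie2 and GRCm39.

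Symbols came from GENCODE M39 (53400 of 53947 genes matched). Expected counts were rounded, filtered with filterByExpr, scaled by TMM and tested with the robust quasi-likelihood F test of edgeR 4.0.16 (R 4.3.3, limma 3.58.1), group as the only term, Benjamini-Hochberg adjustment over 13576 genes and a threshold of 0.05. SEs were derived as the size of the log2 fold change over the root of its F statistic. The common dispersion was 0.0535. The script was tested on simulated data. Counting limits cover counting error only. No libraries were duplicates.

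The members, gene lists and alternatives were chosen with earlier results of these data known. Besides the members, the text names the called genes of each list with the lowest p, at most 4, or where none was called the 2 most abundant, and the 5 genes most like the members' mean profile. Other genes are named where they account for a count. Alternatives were DESeq2 1.42.0, limma-voom, limma on log2(TPM + 0.1), other size factors, filters, library sizes and gene sets, length corrections, a replicate block, a covariate for the share of 7SL and 7SK, and leaving out each library.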

Additional observations from a re-analysis of the deposited data

How the results depend on the processing

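Over 19 alternatives the number of genes called (1597) was 519 with limma on TPM, 705 with an effective length offset, 799 with the replicate block, 935 with the 7SL and 7SK covariate, 943 with the length trend removed, and 166 to 3294 without single libraries, lowest without WT replicate 1 and highest without HSA-LR replicate 2. Markers called higher (1) numbered 6 with DESeq2, 2 without a filter (Gsn and Smoc2), 0 with limma-voom, limma on TPM, the effective length offset, the replicate block, the 7SL and 7SK covariate and the length trend removed, and 0 to 7 without single libraries. Of all genes, 13179 to 23009 of which were tested, those called higher (581) numbered 986 with DESeq2 and 804 without a filter. In the fits with 0 markers they numbered, in the same order, 455, 50, 260, 254, 362 and 350. Without single libraries they numbered 42 to 1479. Markers called lower (0) numbered 2 with the 7SL and 7SK covariate and 0 to 1 without single libraries. All genes called lower (1016) numbered 573 with that covariate and 124 to 1815 without single libraries. Groups were separated for 3 markers in TPM and for 5 in CPM per kilobase, a scale on which the share of all genes was not computed. Signs turned for Cd34 with the covariate (-0.0046), for Pi16 with limma on TPM (-0.38), the covariate (-0.87) and without HSA-LR replicate 1 (-0.29, range over single libraries -0.29 to 0.76), and for Cxcl12 with the length offset (0.091). The cause was not tested. Gsn stayed called in 9 of 19 alternatives. Replicate numbers are shared by the groups, but deviations of same-numbered libraries correlated at 0.00052, -0.095 and 0.23, so the replicate block has no basis beyond the number; under it Gsn stood at 1.00 with an edgeR adjusted p of 0.0903. Depth limited Osr1 (12 to 54 counts) and Tcf21.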
